A study of Mus musculus with 12 samples.

Results

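The histone variant genes described here are 9 of the 29486 genes in a table of normalized counts from mouse splenic B cells, found by their symbols: H2afx, H2afz, H2afv, H2afy, H2afj, H3f3a, H3f3b, H1f0 and H1fx. H2afx was chosen by its values in these same libraries, where it fell with etoposide, and the others were added as further variant genes of the H2A, H3 and H1 families. Its levels and changes are therefore given as a description, and no test was made of them.

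Total mRNA was sequenced from primary splenic B cells of C57BL/6Babr mice in 3 conditions of 4 libraries each. All cells were activated with the mitogen LPS at 10 µg/ml. The group LPS had 48 h of LPS alone. The group LE had 48 h of LPS and then 4 h of etoposide at 20 µM, a topoisomerase II poison that causes DNA double-strand breaks. The group LEKU had 47 h of LPS, then 1 h of the ATM kinase inhibitor KU55933 at 10 µM, and then 4 h of etoposide at 20 µM. The labels do not say whether the cells with LPS alone were kept for a further 4 h, and no group had KU55933 without etoposide. Each condition carried Illumina indexes that no other condition carried, so index and condition cannot be told apart.

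The 4 columns of a condition had the same ratio for every gene in the table, to within 1.4e-14 in log2 units. They therefore hold 1 value per gene and condition, multiplied by a factor of the library, and show no spread between replicates. For this reason no p-value is given, and the 95% intervals below treat the sum of the 4 columns as a count and cover counting error only. Expressed in units of 1000000, the columns summed to between 20.4 and 30.6 normalized counts. A scaled level is the condition's value after division by library size factors, and a change is the log2 ratio of 2 scaled levels with 1 added to each. A gene was called where it differed 2-fold, and 15601 genes with a scaled level of at least 10 in at least 1 condition were kept. Of the 9 variant genes 8 were kept, each of them at 229.6 or more in every condition, and H1fx was not.

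Nucleosomes are built mainly of core histones that dividing cells make in S phase from the replication-dependent Hist genes, whose mRNAs mostly end in a stem-loop in place of a poly(A) tail. Variant histones are made throughout the cell cycle from separate genes, mostly with introns and polyadenylated mRNAs, and are placed in chromatin by chaperones of their own. The variant H2A.X, product of H2afx, is the one whose tail ATM and related kinases phosphorylate around a double-strand break, which gives the mark γH2AX. In activated B cells this response also follows the breaks of class switch recombination.

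The ends of the coding sequences show a difference between H2afx and 3 other H2A variants. The last 30 coding bases of the annotated GRCm38 transcripts are printed 5′ to 3′ on the sense strand, with a serine codon followed by a glutamine codon in capitals, the pair of residues that ATM recognises.

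H2afx: aagaaggccTCGCAGgccTCTCAGgagtac

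H2afj: aagacggagAGCCAGaaggtgaagagcaag

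H2afz: atcgggaagaaaggacaacagaagactgtt

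H2afv: attggaaagaaggggcagcagaaaactgct

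In H2afx, at chr9:44335161-44335190, these were 2 pairs, with the serines at positions 136 and 139 of the protein counted without the first methionine, and the second of them is the serine of γH2AX. In H2afj, at chr6:136808697-136808726, 1 pair stood at position 122. No such pair was found in the last 30 coding bases of H2afz at chr3:137866415-137866444 or of H2afv at chr11:6428374-6428403.

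H2afx also differed from the other 8 genes in its mRNA end. The gene lies at chr9:44334694-44336077 on the plus strand as a single exon of 1384 bases. Its transcript held the letters of the histone stem-loop, searched as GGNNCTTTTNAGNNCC on the transcript strand and shown in capitals beside that of Hist1h1c, a replication-dependent linker histone gene that also comes into the comparison below.

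H2afx: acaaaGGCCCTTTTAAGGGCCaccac

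Hist1h1c: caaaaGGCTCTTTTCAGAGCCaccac

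In H2afx the 16 letters stood at chr9:44335240-44335255 in the 3′UTR, 46 bases after the stop codon and 822 bases before the end of the transcript. The polyadenylation signal ATTAAA stood 35 bases before that end. In Hist1h1c they stood at chr13:23739512-23739527, 24 bases after the stop codon. The same letters were found in 89 of 55450 annotated genes (0.161%), in 39 of 63 replication-dependent histone genes of the table with a transcript (61.9%) and in 1 of the 9 variant genes. The libraries were made from poly(A) RNA, and how much of the H2afx mRNA ends at the stem-loop was not tested.

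H2afx, the gene of H2A.X, had the largest changes of the 8 kept genes in LE against LPS and in LEKU against LE. In the 4 LPS libraries its normalized count was 1545, 1714, 1783 and 1606. In the LE libraries it was 222, 248, 301 and 241. In the LEKU libraries it was 758, 854, 915 and 930.3. The 3 sets of values did not overlap, with LE lowest and LEKU between the others. The values of a condition differ only by the library factor. Here and for the genes below, overlap or its absence therefore does not show how well replicates agreed. How many of the 15601 kept genes lack overlap was not counted, so its absence does not set a gene apart. H3f3b, described below, also had all LE values above all LPS values, with a log2 change of only 0.029 after scaling. The scaled level of H2afx was 1869.9 in LPS (95% interval 1825 to 1915), 229.6 in LE (216 to 244) and 836 in LEKU (808 to 864).

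With etoposide H2afx was thus lower by 8.11-fold, a log2 change of -3.02 (95% interval -3.12 to -2.93). No other of the 15601 genes had a lower change in LE against LPS. With KU55933 before etoposide it was 3.63-fold higher than with etoposide alone, a log2 change of 1.86 (1.76 to 1.97), and 31 genes had a higher one. It stayed 2.24-fold below the LPS level, with a log2 change of -1.16 (-1.22 to -1.10), which was -0.94 and so within 2-fold when the columns were taken as deposited. Of the log2 change that etoposide gave without KU55933, 38.4% was present with KU55933 (36.3% to 40.5%, counting error only). Both of these changes are taken against the same LPS libraries. The cells were measured in bulk, where fewer cells with a transcript and less of it per cell cannot be told apart.

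**Figure D1:**
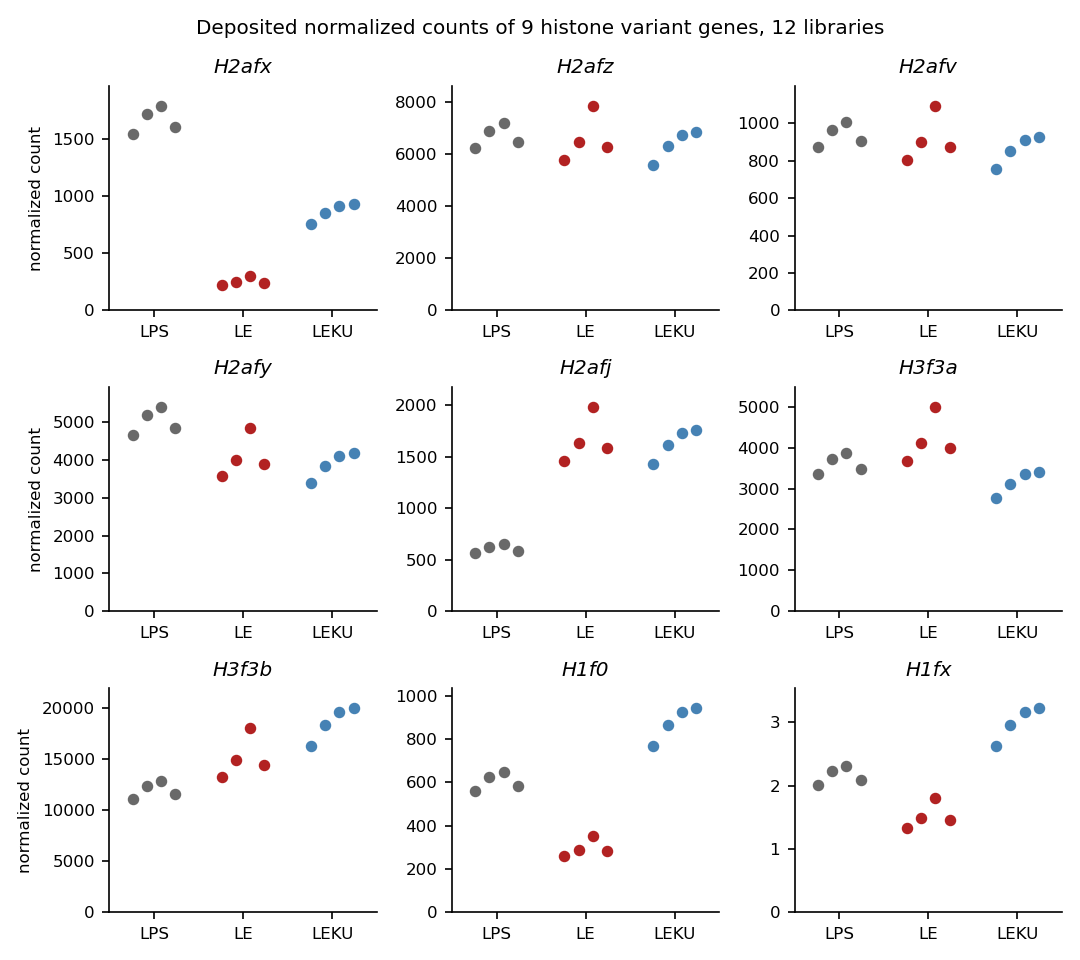
Deposited normalized counts (vertical axes, from 0) of the 9 histone variant genes in the 12 libraries, grouped as LPS, LE and LEKU, with 1 point per library. The points of a condition differ only by 1 factor per library. H2afx was at 1545 to 1783 in LPS, 222 to 301 in LE and 758 to 930.3 in LEKU, and H1f0 was likewise lowest in LE.

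H1f0 encodes the linker histone H1.0, which accumulates in differentiated cells that no longer divide. Its normalized count was 561, 623, 648 and 584 in LPS, 259, 290.1, 351 and 281 in LE, and 766, 864, 926 and 941 in LEKU. The LE values were the lowest and the LEKU values the highest, without overlap, again with no replicate spread in them. The scaled level was 679 in LPS, 268 in LE and 846 in LEKU. It was 2.53-fold lower with etoposide (log2 change -1.34, 95% interval -1.44 to -1.24) and 3.15-fold higher with KU55933 and etoposide than with etoposide alone (1.65, 1.56 to 1.75). In LEKU against LPS the log2 change was 0.32 (0.24 to 0.39). H1f0 is, like H2afx, a single-exon gene (chr15:79028450-79030504, plus strand), and its transcript did not hold the stem-loop letters.

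H1fx, which encodes the linker histone H1X, was near the bottom of the table. Its normalized count was at most 2.32 in LPS, 1.81 in LE and 3.22 in LEKU. Its 3 scaled levels of 2.43, 1.38 and 2.89 had overlapping counting intervals, so that no difference was detectable at this depth.

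H2afj went the other way. It encodes H2A.J, an H2A variant known to accumulate in senescent human cells with DNA damage. Its normalized count was 563, 624, 649 and 585 in LPS, 1456, 1632, 1976 and 1582 in LE, and 1431, 1614, 1729 and 1757 in LEKU. All LE and LEKU values were above all LPS values, and LE and LEKU overlapped. The scaled level was 681 in LPS, 1508 in LE and 1579 in LEKU. The log2 change was 1.15 with etoposide (1.08 to 1.21) and 1.21 with KU55933 and etoposide (1.15 to 1.28), each against the same LPS libraries. Between LEKU and LE it was 0.066 (0.017 to 0.12), and -0.025 with the columns as deposited.

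H2afz and H2afv encode the H2A.Z proteins, which sit at promoters. For H2afz the normalized counts were 6232, 6914, 7192 and 6481 in LPS, 5778, 6476, 7843 and 6278 in LE, and 5592, 6306, 6756 and 6868 in LEKU. For H2afv they were 871, 967, 1006 and 906 in LPS, 803, 901, 1091 and 873 in LE, and 754, 850.2, 911 and 926 in LEKU. For both genes the 3 ranges overlapped before scaling. After scaling, the log2 changes with etoposide were -0.33 for H2afz and -0.34 for H2afv. With KU55933 and etoposide against LPS they were -0.29, or 0.077 after quantile normalization, and -0.34. Between LEKU and LE they were 0.044 and -0.00041, and both lay on the other side of 0 under at least 1 other scaling. H2afz gave 87.7%, 87.8% and 88.1% of the summed level of the pair in LPS, LE and LEKU.

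H2afy encodes macroH2A1, a variant of silent chromatin such as the inactive X chromosome. Its normalized counts were 4658, 5168, 5375 and 4844 in LPS, 3569.7, 4001, 4846 and 3879 in LE, and 3391, 3824, 4096 and 4164 in LEKU. Only the highest LE value reached into the LPS range, and the LEKU values lay below it. The scaled level was 1.52-fold lower with etoposide (log2 change -0.61, 95% interval -0.64 to -0.58) and 1.51-fold lower with KU55933 and etoposide (-0.59, -0.62 to -0.56). Neither reached the 2-fold call. Between LEKU and LE the log2 change was 0.017 (-0.015 to 0.049).

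H3f3a and H3f3b encode the same protein, H3.3, which replaces H3 outside S phase. For H3f3a the normalized counts were 3348, 3714, 3863 and 3481 in LPS, 3669, 4112, 4979.9 and 3986 in LE, and 2769, 3122, 3345 and 3399.7 in LEKU. For H3f3b they were 11144, 12364, 12862 and 11589 in LPS, 13284, 14888, 18032 and 14433 in LE, and 16259, 18335, 19643 and 19966 in LEKU. Before scaling, H3f3b was higher in all LE and LEKU libraries than in any LPS library, and the size factors were 0.965 to 1.31 in LE, 0.906 to 1.11 in LEKU and 0.826 to 0.953 in LPS.

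After scaling, the etoposide changes of both H3.3 genes were near 0. They were -0.093 for H3f3a, which was above 0 under 4 other scalings, and 0.029 for H3f3b, which was below 0 with TMM factors and with the median of ratios over all genes. In LEKU against LE, H3f3a had a log2 change of -0.31 (-0.35 to -0.28) and H3f3b one of 0.38 (0.37 to 0.40). H3f3b gave 76.9%, 78.4% and 85.5% of their summed level in LPS, LE and LEKU. That sum was 17545, 17562 and 20999. By their names, H3f3a-ps2, at scaled levels of 392, 358 and 286, is a pseudogene of H3f3a, and H3f3c, at 232, 181 and 159, a further gene of the family. How reads were split between them was not tested, so the counts of H3f3a are to be taken as uncertain.

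Divided by exon length, the order of the genes could be compared. In LPS, H3f3b (4534 per kb) and H2afz (4248 per kb) were highest, followed by H2afx (1351), H3f3a (1157), H2afy (828), H2afv (646), H2afj (372), H1f0 (331) and H1fx (2.00). In LE the order was H3f3b (4624), H2afz (3370.3), H3f3a (1085), H2afj (824), H2afy (543), H2afv (509.7), H2afx (166), H1f0 (130.5) and H1fx (1.14). H2afx thus moved from the third to the seventh place and H2afj from the seventh to the fourth. In LEKU, H2afx was at the fifth place with 604 per kb, between H2afj at 863 and H2afy at 549.6. Neighbours in these orders cannot be told apart by replicate spread, since the table holds none, and the length used for H2afy, 6809 bases, is that of all its annotated exons.

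Within the 5 H2A variants, H2afx gave 18.1% of the summed level per kb in LPS, 3.06% in LE and 10.1% in LEKU. The share of H2afj was 5.00%, 15.2% and 14.4% in the same order. H2afz was the most abundant in each condition, at 57.1%, 62.3% and 57.9%.

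**Figure D2:**
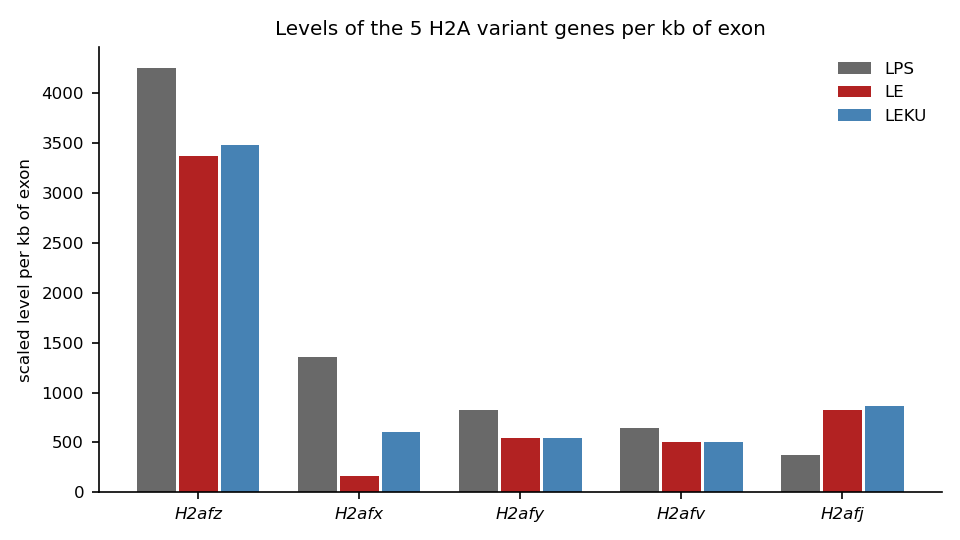
Scaled level per kb of exon (vertical axis, from 0) of the 5 H2A variant genes in LPS, LE and LEKU, with 1 bar per gene and condition and no error bars, since the table holds no replicate spread. H2afx was second in LPS at 1351 per kb and last in LE at 166, below H2afj at 824.

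Counted over the kept variant genes, etoposide against LPS gave 1 of 8 at least 2-fold higher (H2afj) and 2 of 8 at least 2-fold lower (H2afx and H1f0). Over all kept genes 14.6% were called higher and 5.65% lower in this comparison. In LEKU against LE, 2 of 8 were at least 2-fold higher (H2afx and H1f0) and 0 lower, where 1.73% of all genes were called higher and 4.67% lower. In LEKU against LPS, 1 of 8 was higher (H2afj) and 1 of 8 lower (H2afx), against 11.4% and 5.74% of all genes. Since H2afx was chosen by its fall with etoposide, nothing is read from these counts. The median log2 change of the 8 genes was -0.34, 0.055 and -0.32 in the 3 comparisons, beside 0.0077, -0.046 and 0.038 over all 15601 genes.

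**Figure D3:**
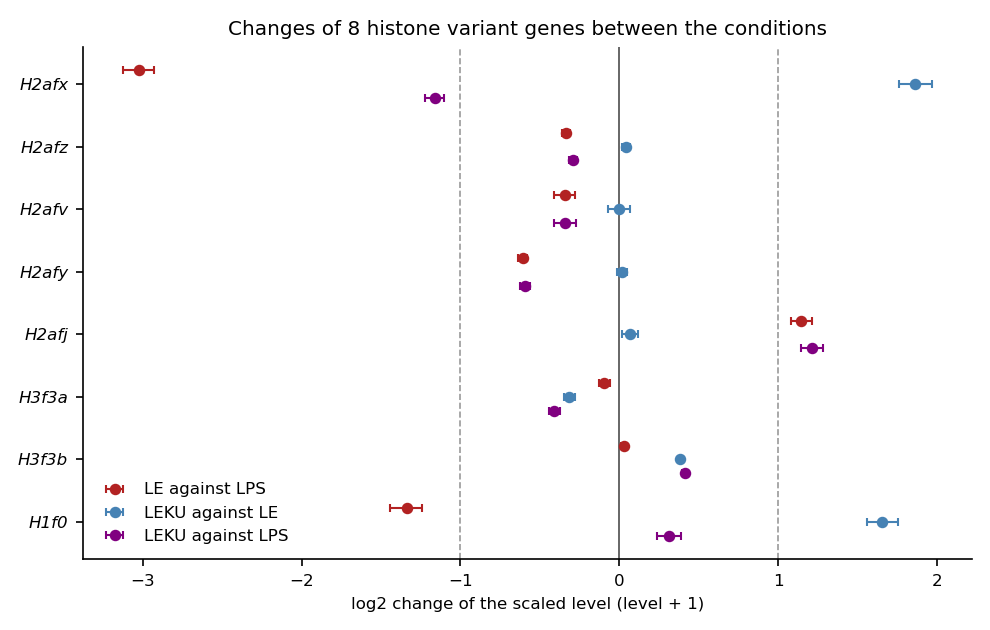
Log2 change of the scaled level (horizontal axis) of the 8 kept histone variant genes in LE against LPS, LEKU against LE and LEKU against LPS. Points are changes, bars are 95% counting intervals and dashed lines mark 2-fold. H2afx (-3.02, then 1.86) and H1f0 (-1.34, then 1.65) were lower in LE than LPS and higher in LEKU than LE, and H2afj was above 2-fold against LPS in both treated groups.

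The genes most like H2afx were sought among 10871 genes with a mean scaled level of at least 100, by distance in the plane of the 2 changes against LPS, over 3 conditions. The nearest 10 lay at log2 distances from 0.59 to 1.09 and included Gm14446, Gfi1b, Klf2, Ltb, Mob3b, BC147527, Ifit3b and Rasgrp2. Klf2, a transcription factor of resting lymphocytes, was at a scaled level of 872 in LPS, 191 in LE and 324 in LEKU. Ltb, which encodes lymphotoxin beta, was at 1563, 362 and 579. Rasgrp2, which encodes an activator of the GTPase Rap1, was at 2388, 624 and 1058. The log2 changes of the 10 in LE against LPS ran from -2.55 for Gm14446 to -1.93 for Rasgrp2. In LEKU against LE they ran from 0.53 for Mob3b to 2.06 for Ifit3b, beside 1.86 for H2afx. Klf2 (0.76), Ltb (0.68) and Rasgrp2 (0.76) were within 2-fold in that comparison.

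**Figure D4:**
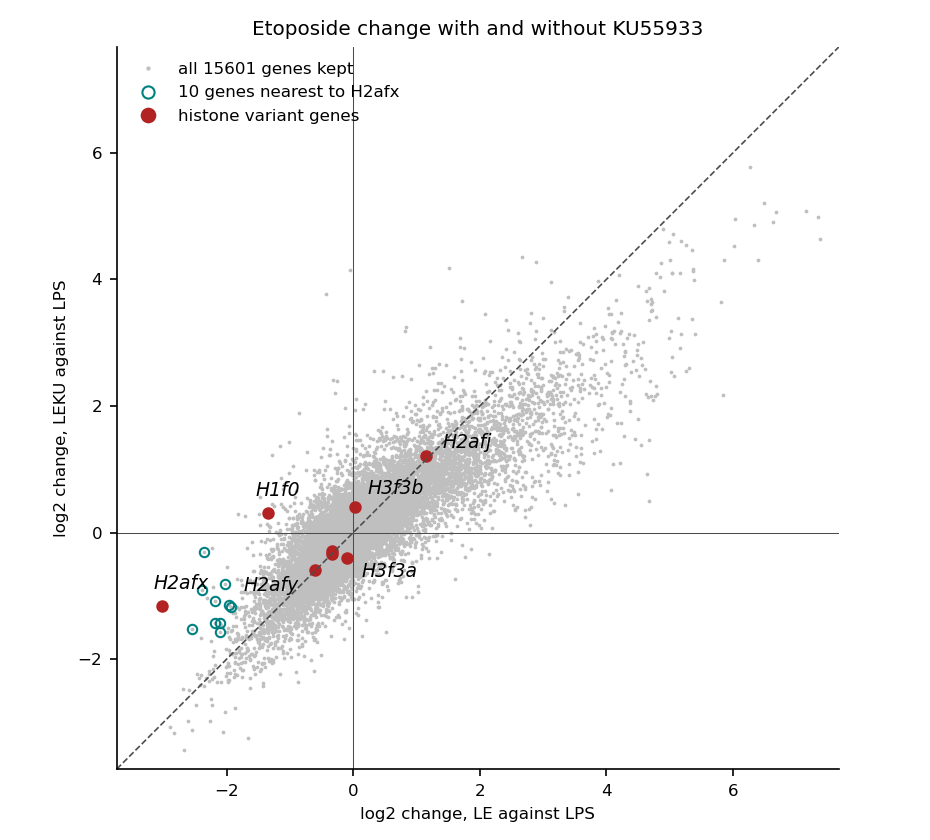
Log2 change in LE against LPS (horizontal axis) and in LEKU against LPS (vertical axis) for the 15601 kept genes in grey, the histone variant genes in red and the 10 genes nearest to H2afx as open circles. Both axes use the same LPS libraries, and the dashed line marks equal changes. H2afx lay farthest left at -3.02 and above the line at -1.16, and H2afj lay close to the line at 1.15 and 1.21.

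Genes that write, read or remove the γH2AX mark were followed as a list. Of 14 genes of H2A.X damage signalling, 13 were within 2-fold in LE against LPS, with a median of -0.18. The exception was Ppm1d, which encodes the phosphatase WIP1 that removes the phosphate from H2A.X. Its scaled level was 862 in LPS, 3708 in LE and 1835 in LEKU, with log2 changes of 2.10 with etoposide and -1.01 in LEKU against LE, the latter within 2-fold under some of the other scalings. It was the only one of the 14 past 2-fold in LEKU against LE, where the median was -0.063, and in LEKU against LPS, where it was at 1.09 and the median at -0.25. Most kept genes were within 2-fold as well. In LE against LPS 14.6% of them were called higher and 5.65% lower. The shares were 1.73% and 4.67% in LEKU against LE, and 11.4% and 5.74% in LEKU against LPS. The 13 genes within 2-fold therefore give no support for a trait of this list.

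For H2A.Z, 0 of 14 genes of its deposition and removal were past 2-fold in any of the 3 comparisons, with medians of -0.17, 0.024 and 0.021. The most abundant were Srcap, Ep400 and Anp32e, and the last of these, the chaperone that takes H2A.Z off chromatin, was at 7855, 4658 and 4071 in LPS, LE and LEKU. As most kept genes were within 2-fold in each comparison, the 0 of 14 gives no support for a trait of this list.

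For H3.3, 1 of 9 deposition genes was past 2-fold in LE against LPS. This was Asf1b, a chaperone of H3 and H4 with a role in S phase, at -1.04 in LE and -1.28 in LEKU, each against LPS. In LE 0 to 2 of the 9 were lower over the alternative settings. The list medians were -0.65 and -0.54 against LPS and -0.070 in LEKU against LE, where 0 of 9 were called and the most abundant members Atrx, Dek and Ubn2 had log2 changes of -0.07, -0.26 and -0.20. Of 11 genes of CAF-1 and general histone chaperones, 0 were called in LE against LPS or in LEKU against LE, and Nasp, a chaperone of soluble H3 and H4, was lower in LEKU against LPS at -1.07, where 0 to 2 of the 11 were lower over the alternative settings. Their medians were -0.35, -0.26 and -0.54. Since most kept genes were within 2-fold in each comparison, the few calls in these lists give no support for a trait of them.

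Cenpa, the gene of the centromeric H3 variant, was at 3224 in LPS, 1430.1 in LE and 2557 in LEKU. Its log2 change was -1.17 with etoposide and 0.84 in LEKU against LE. Oip5, whose product helps to prime the centromere for loading, was also called lower with etoposide (-1.16). In all 3 of 5 genes of this list were called lower, and 1 to 3 over the alternative settings, beside 5.65% of all kept genes. Oip5 stayed low in LEKU, at -1.33 against LPS, and 0 of 5 were called in LEKU against LE, where the median was -0.13. The medians of the list were -1.16 in LE and -0.45 in LEKU against LPS.

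The replication-dependent histone genes were measured as poly(A) RNA, and 21 of 65 were kept, 9 of them only through their level in LEKU. For that reason the 8 with a mean scaled level of at least 20 are described, a limit chosen after the values were seen. With etoposide 7 of the 8 were at least 2-fold lower and 0 higher, with a median log2 change of -1.05. Over all kept genes 5.65% were called lower and 14.6% higher. Hist3h2ba (-1.82), Hist3h2a (-1.71) and Hist1h2be (-1.19) had the lowest values. In LEKU against LE 5 of the 8 were at least 2-fold higher and 0 lower, with a median of 1.5. Over all kept genes 1.73% were called higher and 4.67% lower there. Hist1h1c, shown above with its stem-loop, was at 189 in LPS, 92.5 in LE and 508 in LEKU, with a log2 change of 2.44 in LEKU against LE. Hist3h2ba (2.11) and Hist3h2a (1.98) followed. In LPS, LE and LEKU, Hist3h2ba was at 33.1, 8.67 and 40.7 and Hist3h2a at 58.2, 17.1 and 70.1. Both were below 20 in LE and reached the mean of 20 only through LPS and LEKU. Their changes with LE therefore give no support, though the 7 and the 5 include them. In LEKU against LPS 1 of the 8 was called, Hist1h1c at 1.42, where 11.4% of all kept genes were called higher.

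The kept replication-dependent genes over the whole list gave 7 of 21 lower and 0 higher with etoposide, and 8 of 21 higher and 0 lower in LEKU against LE. Over all kept genes 5.65% were called lower with etoposide and 1.73% higher in LEKU against LE. In LEKU against LPS Hist1h1c was higher, and Hist1h1d, at 4.31, 4.70 and 11.5 in LPS, LE and LEKU, was kept only through LEKU, so that its value there gives no support. These counts depended on the scaling and the filter, from 2 to 9 lower with etoposide and from 4 to 16 higher in LEKU against LE. Among the 16 kept genes with the stem-loop letters, 5 were lower with etoposide and 7 were higher in LEKU against LE. Both counts of genes higher in LEKU against LE, the 8 and the 7, include Hist1h1d and Hist1h1e. Hist1h1e, at 7.79, 5.49 and 16.4 in LPS, LE and LEKU, was also kept only through LEKU, so neither gene gives support. Genes that process histone mRNA were, like most kept genes, within 2-fold in all 3 comparisons (0 of 10 called, medians -0.24, -0.093 and -0.30). The most abundant were Sympk, Casp8ap2 and Ncbp1. Slbp, named after its values were seen because its product binds the stem-loop, was at 3408, 2658 and 2248.

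By their medians, the cell cycle lists did not have LE as the lowest of the 3 conditions. Of 20 mitosis genes, 12 were at least 2-fold lower in LE and 18 in LEKU, each against LPS, with medians of -1.32 and -1.70. Over all kept genes 5.65% were called lower in LE and 5.74% in LEKU, each against LPS, and 4.67% in LEKU against LE. Plk1, a mitotic kinase, was at 2903, 406 and 324 in LPS, LE and LEKU. In LEKU against LE 20 of 20 were below 0 and 2 were called lower, Cdc20 (-1.29) and Kif20a (-1.17). The DNA replication list had 2 of 20 lower with etoposide, Pold1 (-1.30) and Pola1 (-1.21), and 4 of 20 lower with KU55933 and etoposide against LPS, with Pola1 lowest at -1.55. Over the alternative settings these counts ran from 0 to 2 and from 1 to 4. In LEKU against LE 0 of 20 were called, with a median of -0.36, and 19 of 20 were below 0. Pold1 was above 0 there, at 4124 in LPS, 1671 in LE and 1896 in LEKU, and so was lowest in LE. Whether the cells of the 3 conditions were in different cell cycle phases was not tested.

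H2afx and H1f0 are both single-exon genes. Of 246 other single-exon coding genes kept, 39 were at least 2-fold higher and 19 lower with etoposide, with a median of 0.088. Over all kept genes 14.6% were called higher and 5.65% lower. In LEKU against LE 14 were higher and 12 lower, with a median of 0.0010, beside 1.73% and 4.67% of all kept genes. Only the variant genes were taken out of the 246. Replication-dependent histone genes described above were left in, among them Hist1h1c with the highest change in LEKU against LE (2.44). Over their whole list 8 were called higher in that comparison, some of them kept only through LEKU. How many of the 14 these make up was not counted, so the 14 gives no support for a trait of single-exon genes.

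**Figure D5:**
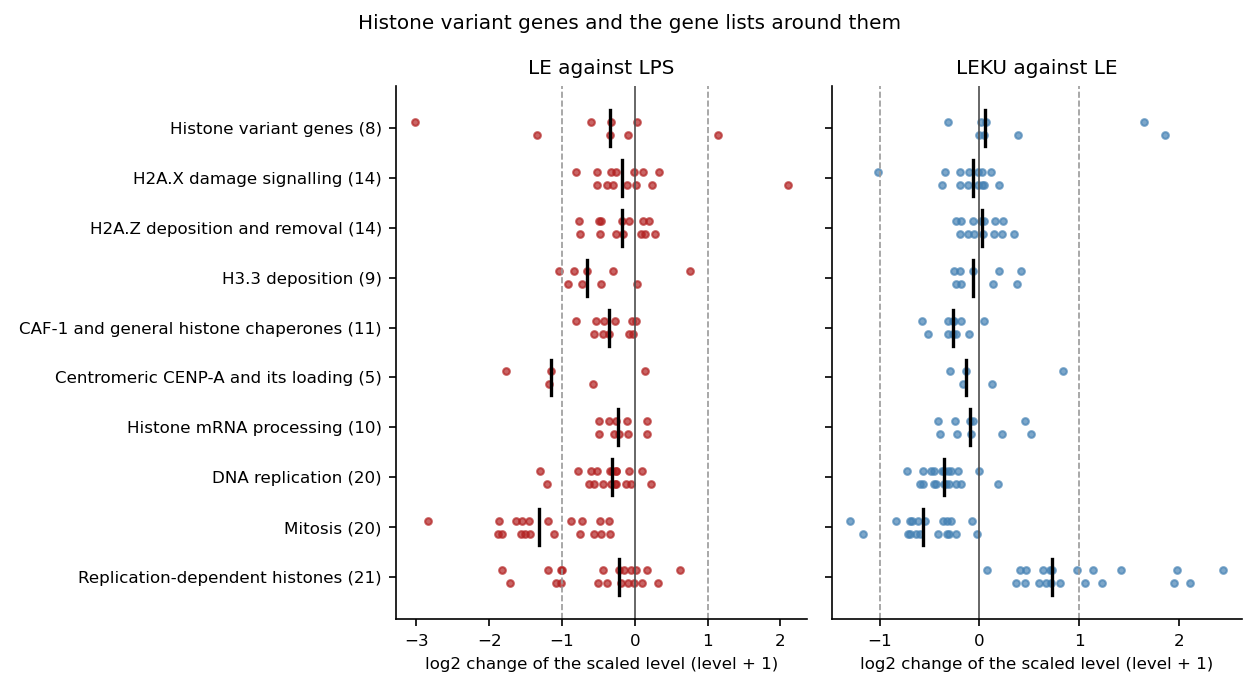
Log2 change of the scaled level (horizontal axes) in LE against LPS (left) and LEKU against LE (right) for the kept genes of each list, with 1 point per gene, the number of genes in brackets, the median as a black bar and 2-fold as dashed lines. H2afx is the leftmost point of the variant genes at left and the rightmost at right. The 20 mitosis genes lay below 0 in both panels, and the 21 replication-dependent histone genes lay above 0 at right, of which 9 were kept only through their level in LEKU.

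The label of the cells was checked on marker genes. All 8 B cell markers were kept, and their summed scaled level was 144143 in LPS, 78316 in LE and 87013 in LEKU. Pax5, Ebf1 and Cd22 were each over 2-fold lower in LE than LPS (-2.28, -2.23 and -2.47), and their part in the changes of the variant genes was not tested. Of 8 T cell markers 3 were kept (Trac, Lck and Cd2), with sums of 730 to 1520, while Cd3e was at 1.80 or less. Trac, at 2.88, 13.8 and 5.41 in LPS, LE and LEKU, passed the filter only in LE, so its higher value there gives no support. In LE against LPS it was called higher (1.94) and Cd2 lower (-1.40), and Lck was at -0.50. Of 9 listed macrophage markers 8 were found and 6 kept (Lyz2, Csf1r, Adgre1, Cd68, Itgam and Cd14), with sums of 419 to 480. In LE against LPS 3 of the 6 were at least 2-fold higher, Cd14 (5.12 to 24.4), Csf1r (4.13 to 10.4) and Cd68 (104 to 213), and Itgam was at 218 and 129.8, with a list median of 0.77. Over all kept genes 14.6% were called higher and 5.65% lower in this comparison. Cd14 passed the filter only in LE and LEKU, and Csf1r only in LE, so the calls of these genes give no support. The part of the macrophage markers in the changes of the variant genes was not tested. Of 8 listed red blood cell markers 6 were found and 2 kept (Hbb-bs and Hbb-bt), with sums of 108 to 214.

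For several of these genes reads could come from more than 1 source. The authors made the libraries with a stranded kit, but the strand setting of their counting is not given in the sources used here. Genes on the opposite strand overlap exons of H2afx (Gm44335, 141 bases), H2afj (Gm44364, 141), H2afy (Gm47071, 501), H1f0 (Gm49544, 163), H1fx (Gm5577, 213) and H3f3a (Gm17275, 638, and H3f3aos, 160). Reads of such overlaps cannot be told apart if the counting did not use strand.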

How the data were processed

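mRNAseq libraries were prepared from poly(A) RNA of B cells in 12 libraries. The authors trimmed reads (Trim Galore, cutadapt 1.2.1), mapped them with TopHat2 2.0.12, counted them with HTSeq on Ensembl release 78 of GRCm38 and fitted them with DESeq2 1.6.3. The deposited normalized counts are a signal per gene and library that differs within a condition only by 1 factor per library. The deposited tables of the authors' own comparisons hold fold changes and p-values and were not used.

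Columns were summed per condition and divided by summed size factors (median of ratios over genes with a geometric mean of at least 10, chosen after seeing the data, since the table does not fix the scale between conditions). Changes used a pseudocount of 1. Intervals (exact Poisson, and exact conditional for ratios, 95%, and a normal approximation for the share of H2afx) cover counting error. A limma fit, planned only for columns with replicate spread, was not made, since the columns hold none. Exons, motifs and coordinates came from GENCODE M21 (GRCm38). Computation used Python 3.11.15, numpy 2.4.6, scipy 1.17.1 and pandas 2.3.3, and the functions were tested on simulated data. The 9 genes and all lists were chosen with earlier results of these data known. Named genes were the 9 variants, the 10 nearest to H2afx, and of each list up to 3 with the largest change past 2-fold or, with none, the highest mean, plus markers at a level of 10 or more. Alternatives were TMM factors, quantile normalization, column totals, pseudocounts of 0.5 and 5, a 1.5-fold call, no filter, a minimum of 50 and leaving out each library. The mean of at least 20 for histone genes, 3 other gene cuts for the size factors and the columns as deposited were added after seeing the data. Results for some genes that this rule names are not reported here.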

Additional observations from a re-analysis of the deposited data

How the results depend on the processing

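The number of variant genes called was 3 in LE against LPS and 2 in each of the other comparisons. Leaving out any 1 of the 12 libraries kept these numbers (3 to 3, 2 to 2 and 2 to 2). The columns of a condition are proportional, so leaving out a library changes only the size factors. Neither this result nor the same check of the share below is therefore support. With the columns as deposited, an alternative chosen after seeing the data, 1 gene was called in LEKU against LPS, since H2afx was then at -0.94. The share of the H2afx change present with KU55933 was 38.4%, from 38.3% to 38.6% without any 1 library, 34.4% with column totals, 34.8% with the columns as deposited and 35.0% with size factors from genes with a mean of at least 1000, the last 2 chosen after seeing the data. Over the 24 alternatives H2afx ranged from -3.13 to -2.71 in LE against LPS and from 1.77 to 1.91 in LEKU against LE. No called change of a variant gene reversed. This is no support, since most settings shift all genes nearly alike or leave the changes as they are. The scaling moved the median of all genes by over 0.1 under 5 settings, and by 0.31 in LE against LPS with the columns as deposited. Of 78 counts of called genes over the lists, 66 moved by at most 1 under the settings with a 2-fold call. The replication-dependent histones moved most, and 0 to 2 DNA replication genes were called lower in LE against LPS. No paired analysis was possible because the columns of a condition hold no spread between replicates. Counts of this depth limit only H1fx.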
